A study of Mus musculus with 768 samples.

Results

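The genes described here encode the invariant chains of the pre-T-cell receptor (pre-TCR) of immature thymocytes. They are Ptcra, Cd3d, Cd3e, Cd3g and Cd247, 5 of the 23127 genes in the deposited count table, and they were taken by name and followed through all 8 plates, per cell and summed. T-cell receptor constant genes were not analysed here.

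In a thymocyte that has rearranged only its beta chain, the pre-T alpha chain made from Ptcra stands in for the missing alpha chain and pairs with beta on the cell surface. The pair carries no signal by itself and relies on the CD3 chains gamma, delta and epsilon, from Cd3g, Cd3d and Cd3e, and on the zeta chain from Cd247, whose tails hold the tyrosine motifs that the kinases Lck and Zap70 act on. Ptcra is known as a gene of the immature stages in the thymus, under Notch and E-protein control, whereas the CD3 genes stay on in mature T cells and Cd247 is also used by receptors of natural killer (NK) cells.

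RNA was counted in 768 single thymocytes of C57BL/6 mice aged 6 to 8 weeks, sorted as CD4-, CD8- and lineage-negative CD45+ cells onto 8 plates of 96 cells. The DN2-3 gate took CD25+ cells and was filled from Tcf7-/- mice, Tcf7fl/fl mice with Vav-cre, Tcf7fl/fl mice with Lck-cre (2 plates) and wild-type (WT) mice. The DN1 gate took CD25-negative, CD44+ cells and was filled from Tcf7-/-, Vav-cre and WT mice. Vav-cre drives recombination throughout the blood system and Lck-cre in T-cell precursors, so both act on the floxed Tcf7 gene, whose product is the T-lineage factor TCF1. The labels name no animals, so each group was 1 library, apart from the Lck-cre group with its 2 plates, and no test between groups was possible. The gap between the Lck-cre plates was the only spread within a group, and it may be technical.

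The promoters of Ptcra, Cd3d and Cd3g are shown because these genes differed most between the libraries, and their E-box and TCF matches because E-proteins are known regulators of Ptcra and Tcf7 is the gene altered here. All 5 genes had an entry in the RefSeq promoter table (GRCm38.p6), which holds 250 bases before to 50 bases after each start. Capitals mark every match, on either strand, of the E-box CANNTG or of the TCF motif CTTTGA or CTTTGT. The Ptcra stretch is chr17:46763663-46763962 on the minus strand, the Cd3d stretch chr9:44981536-44981835 on the plus strand and the Cd3g stretch chr9:44980382-44980681 on the minus strand.
Ptcra: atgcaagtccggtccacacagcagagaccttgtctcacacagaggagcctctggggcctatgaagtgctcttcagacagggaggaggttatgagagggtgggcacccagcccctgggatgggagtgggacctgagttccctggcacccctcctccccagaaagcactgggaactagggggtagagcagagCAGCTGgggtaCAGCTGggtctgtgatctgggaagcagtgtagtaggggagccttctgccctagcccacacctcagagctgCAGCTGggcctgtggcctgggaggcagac
Cd3d: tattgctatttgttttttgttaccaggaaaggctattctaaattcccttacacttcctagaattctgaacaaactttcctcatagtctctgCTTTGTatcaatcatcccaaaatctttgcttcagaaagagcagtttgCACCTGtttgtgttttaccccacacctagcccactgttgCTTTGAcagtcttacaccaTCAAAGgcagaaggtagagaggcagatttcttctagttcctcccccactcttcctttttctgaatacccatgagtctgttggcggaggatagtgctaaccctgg
Cd3g: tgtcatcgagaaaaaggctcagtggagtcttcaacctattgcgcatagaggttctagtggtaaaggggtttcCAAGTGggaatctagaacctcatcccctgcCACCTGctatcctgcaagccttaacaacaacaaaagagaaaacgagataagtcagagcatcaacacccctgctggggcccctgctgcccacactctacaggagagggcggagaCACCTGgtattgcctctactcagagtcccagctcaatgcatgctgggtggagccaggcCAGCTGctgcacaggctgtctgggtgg

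The Ptcra promoter held 3 E-boxes and no TCF match, the Cd3d promoter 1 E-box and 3 TCF matches, and the Cd3g promoter 4 E-boxes and no TCF match. The Cd3e promoter had 2 E-boxes and no TCF match, and the Cd247 promoter 2 E-boxes and 1 TCF match. An E-box was found in 72.3% and a TCF match in 31.2% of all 32851 promoters of that length, so that an E-box in a promoter is common. The RBPJ motif TGGGAA, the core read by the nuclear partner of Notch, was matched 2 times in the Ptcra promoter, 1 time each in those of Cd3e and Cd3g, and in 25.6% of all promoters. The ETS motif GGAAGT or GGAAGC was matched 1 time each for Ptcra, Cd3d and Cd3e and 2 times for Cd247, with a match in 43.6% of all promoters. The RUNX motif TGTGGT was matched in none of the 5 and in 16.8% of all promoters. In the Ptcra promoter a TGGGAA match shared bases with the ETS match, and in the Cd3g promoter one shared bases with an E-box. No other matches overlapped.

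In the GENCODE annotation of GRCm38, Ptcra lies on chromosome 17 from 46755663 to 46763712 on the minus strand. Cd3g (chromosome 9, 44969572 to 44980431, minus strand) and Cd3d (44981786 to 44987339, plus strand) are transcribed away from each other, with 1354 bases between their starts, and Cd3e (44998740 to 45009627, minus strand) ends 11400 bases beyond Cd3d. Cd247 lies apart from these, on chromosome 1 from 165788681 to 165877277 on the plus strand. No annotated gene overlaps Cd3d or Cd3g. Ptcra shares its span with the non-coding Gm26904 on the other strand, Cd3e with the antisense Gm48719 and Cd247 with Pou2f1 and others. The counting is not stated to use strand, so reads of these genes and of their partners on the other strand cannot be told apart.

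Of all cells, 675 had at least 1000 detected genes and were kept, between 58 and 96 a plate. Their summed counts ran between 4381685 and 8371808 in the DN2-3 libraries and between 1547512 and 7112702 in the DN1 libraries, lowest in Vav-cre DN1. Levels are given as CPM, the counts of a gene scaled to the same total in every library, which carry no gene length and so are not compared between genes. Intervals are 95%, cover counting error only and treat each count as an independent molecule. Whether molecular identifiers were collapsed is not given, so the intervals may be too narrow even for counting error. Tcf7 itself had 122 CPM in Tcf7-/- DN2-3 against 862 CPM in WT DN2-3, and 98.6 CPM in Tcf7-/- DN1 against 134 CPM in WT DN1. The library labelled Vav-cre DN2-3 had 964 CPM and the Lck-cre plates 762 and 658 CPM, near WT DN2-3 rather than Tcf7-/- DN2-3, and Vav-cre DN1 had 368 CPM, above WT DN1. Which part of Tcf7 is deleted and which part the reads cover are not given in the sources used here, so its count does not check the labels of these 4 libraries, and every direction below that rests on them is a direction between libraries so labelled. The Tcf7-/- entries also carry their own wording in the labels (polyA in place of total RNA, and another build entry), so genotype and a possible separate preparation cannot be told apart there.

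The labelled gates were checked against markers. All 8 markers of DN3-stage thymocytes (Il2ra, Rag1, Rag2, Dntt, Notch3, Dtx1, Ly6d and Arpp21) had counts in every DN2-3 library, with summed levels between 5126 and 7972 CPM against 114 to 763 CPM in the DN1 libraries. The DN1 libraries were rich in genes of other lymphoid cells: 13 NK markers summed to 5314 CPM in Tcf7-/-, 2667 CPM in Vav-cre and 7419 CPM in WT cells. NK markers in the DN2-3 libraries summed to 1197 to 9708 CPM, most of it Gzma with 788 to 9343 CPM, while Ncr1 was at 0 in all 5. Innate lymphoid markers summed to 407 to 837 CPM in the DN2-3 and 5831 to 9608 CPM in the DN1 libraries. Early progenitor markers summed to 1074 CPM in Tcf7-/-, 540 CPM in Vav-cre and 91.1 CPM in WT DN1 cells, where Cd34 and Mpo were at 0.

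WT DN1 stood apart from the other DN1 libraries as well. Its 9 mature alpha-beta T-cell markers summed to 980 CPM with none at 0, against 174 CPM in Tcf7-/- and 116 CPM in Vav-cre DN1, and 138 to 454 CPM in the DN2-3 libraries. Among them Cd28 had 404 CPM, Cd40lg 226 CPM and Cd5 192 CPM in WT DN1, while Ncr1 was at 0 there. Other markers of this list were low in WT DN1, with Cd4 at 0.281 CPM, Cd8a at 6.05 CPM and Cd8b1 at 7.45 CPM. Cd8a was higher in Vav-cre DN1 (38.8 CPM), and Cd8b1 in Tcf7-/- DN2-3 (117 CPM) and Vav-cre DN2-3 (87 CPM). The 5 gamma-delta T-cell markers in the file, of 10 listed, summed to 920 CPM in Tcf7-/-, 1118 CPM in Vav-cre and 237 CPM in WT DN1 cells, and 78.4 to 270 CPM in the DN2-3 libraries. B-cell markers summed to 57.7 to 139 CPM in the DN2-3 and 198 to 458 CPM in the DN1 libraries, myeloid and dendritic markers to 1.37 to 86.6 CPM and 407 to 2440 CPM, and stromal markers to 141 to 321 CPM and 21.1 to 130 CPM. Fewer cells of a type and less RNA per cell cannot be told apart in any summed level. The DN1 libraries of the mutants are also set against each other below, which leaves WT DN1 out.

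Ptcra was the member that differed most between the gates. It had 598 CPM (582 to 615) in Tcf7-/- DN2-3, 297 CPM (281 to 313) in Vav-cre DN2-3, 349 CPM (335 to 364) and 254 CPM (241 to 267) in the Lck-cre plates and 147 CPM (137 to 158) in WT DN2-3. In the DN1 gate it had 51 CPM (44.3 to 58.3) in Tcf7-/- cells, 2.58 CPM (0.704 to 6.62) in Vav-cre cells and 1.12 CPM (0.486 to 2.22) in WT cells, the last pair resting on 4 and 8 counts. The DN2-3 and DN1 ranges did not overlap, Tcf7-/- was the highest library within each gate, and WT the lowest within each. The first Lck-cre plate, the Vav-cre library and the second Lck-cre plate followed each other within the gap between the Lck-cre plates, 0.45 on the log2 scale, and the Vav-cre and WT DN1 libraries differed by less than their counting intervals. Each other step in the order was larger than that gap. The DN2-3 and DN1 ranges of Cd247 did not overlap either (219 to 328 against 89.8 to 175 CPM). Nor did those of Cd3g (1778 to 3233 against 474 to 1689 CPM), but both lay closer together than those of Ptcra. For both, the step between the gates was within the gap between the Lck-cre plates. On the log2 scale it was 0.305 against 0.324 for Cd247 and 0.073 against 0.079 for Cd3g.

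**Figure D1:**
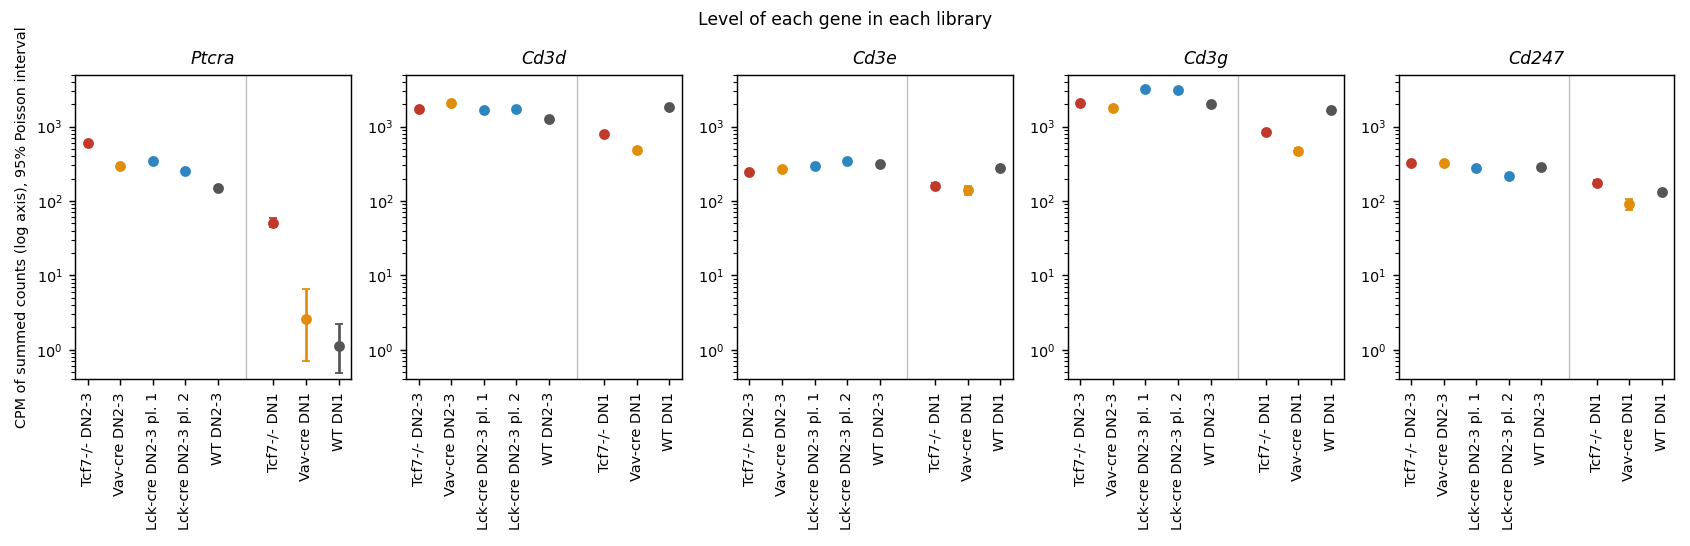
Level of each gene in each of the 8 libraries, in CPM of the summed counts on a log axis, with 95% Poisson intervals; the 5 DN2-3 libraries are left of the grey line and the 3 DN1 libraries right of it. Ptcra spans 1.12 to 598 CPM, while Cd3d, Cd3e, Cd3g and Cd247 stay above 89 CPM in every library. The gates do not overlap for Ptcra, Cd3g and Cd247, but for Cd3g and Cd247 the step between them is within the gap between the Lck-cre plates.

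Between genotypes in the DN2-3 gate, Ptcra was 4.07-fold higher in Tcf7-/- than in WT cells (3.76 to 4.4), 2.02-fold higher in cells labelled Vav-cre (1.84 to 2.21) and 2.06-fold higher in cells labelled Lck-cre (1.90 to 2.23). As log2 ratios of CPM plus 10, the scale used from here on, these were 1.95, 0.97 and 0.97, and the last was 1.19 for the first Lck-cre plate and 0.75 for the second. All 3 exceeded the gap between the Lck-cre plates. The Tcf7-/- ratio passed 2-fold (a log2 ratio of 1) and the other 2 stood at its edge. Part of the WT level came from 1 cell, which held 195 counts or 26.6% of all WT DN2-3 counts of Ptcra, against at most 7.92% for the top cell of any other DN2-3 library. Without the highest cell of each library the ratios were 2.27, 1.26 and 1.28.

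The CD3 genes spanned a narrower range than Ptcra over the same libraries, at most 1.82-fold (Cd3g) against 4.07-fold for Ptcra. Cd3d had 1723 CPM in Tcf7-/-, 2047 CPM in Vav-cre, 1658 and 1738 CPM in the Lck-cre and 1247 CPM in the WT DN2-3 library, so WT was the lowest and stood below the others by more than the 0.07 that separated the Lck-cre plates. Cd3g had 2059 CPM in Tcf7-/-, 1778 CPM in Vav-cre, 3233 and 3061 CPM in the Lck-cre and 2023 CPM in the WT library. Here both Lck-cre plates stood above all others, and Tcf7-/- and WT overlapped in their intervals. Cd3e had 243 CPM in Tcf7-/-, 269 CPM in Vav-cre, 296 and 347 CPM in the Lck-cre and 311 CPM in the WT library, a range of 1.43-fold in which every neighbouring pair lay within the gap between the Lck-cre plates. Cd247 had 323 CPM in Tcf7-/-, 328 CPM in Vav-cre, 276 and 219 CPM in the Lck-cre and 282 CPM in the WT library, and again no neighbours differed by more than that gap.

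Of the 5 members, 1 (Ptcra) was at least 2-fold higher and none lower in Tcf7-/- than in WT DN2-3 cells, where 3.19% of all 8255 measured genes were higher and 10.5% lower. None passed 2-fold either way in cells labelled Vav-cre against WT (5.77% of all genes higher, 10.5% lower), in cells labelled Lck-cre against WT (0.935% higher, 3.48% lower) or in cells labelled Lck-cre against those labelled Vav-cre (5.81% higher, 6.35% lower). The median log2 ratio of the members was 0.19 for Tcf7-/-, 0.21 for Vav-cre and 0.44 for Lck-cre over WT, against -0.17, -0.14 and -0.08 over all measured genes. Cd3d had log2 ratios of 0.46, 0.71 and 0.44 in these comparisons and kept that sign under both other scalings. Cd3e, with -0.34, -0.21 and 0.04, and Cd247, with 0.19, 0.21 and -0.19, had no direction common to the 3 genotypes. Cd3g, with 0.03, -0.19 and 0.63, had none either, and its Vav-cre ratio was -0.02 with TMM and 0.02 with DESeq2 factors. Between the conditional genotypes, Cd3g differed most, with a log2 ratio of 0.82 for Lck-cre over Vav-cre (0.86 and 0.78 for the plates), while Ptcra had 0.01. Cd3g passed 2-fold there, with 1.06, in thinned cells, with cells weighted equally and with the authors' log2 values.

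**Figure D2:**
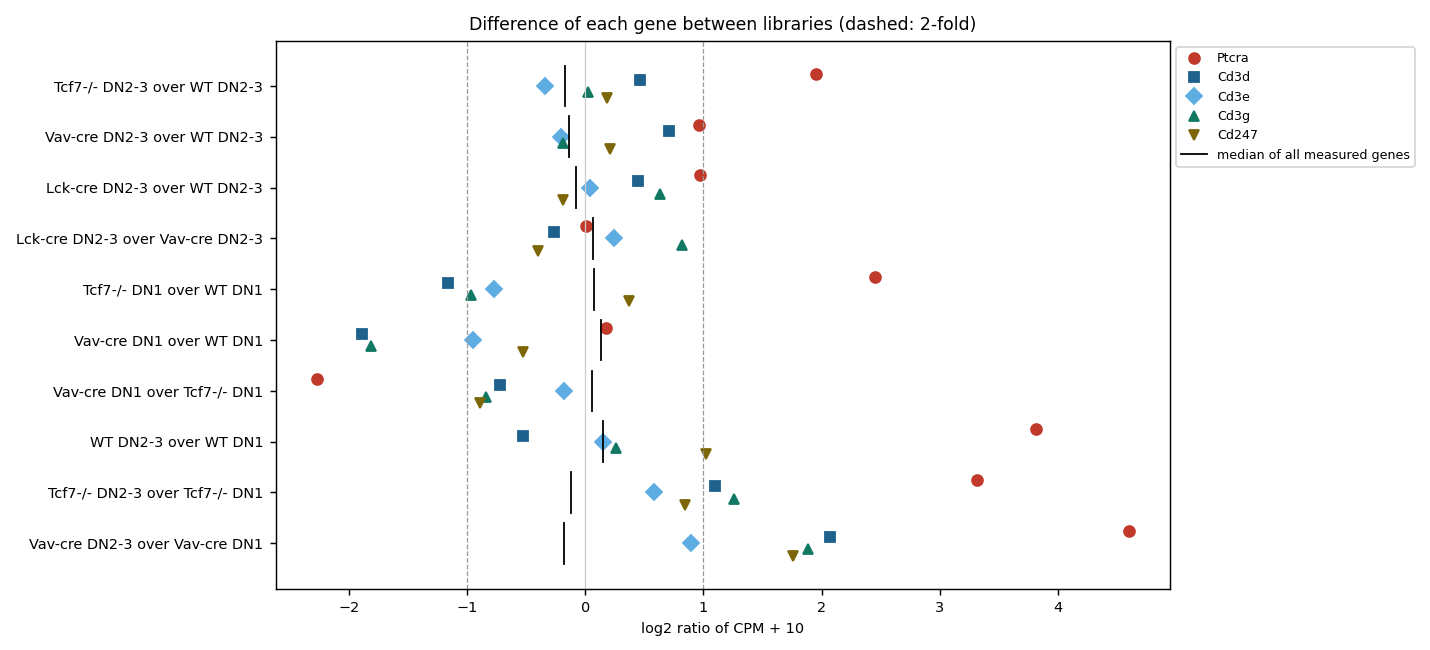
Log2 ratio of CPM plus 10 of each member in each of the 10 comparisons, with the median over all measured genes as a black bar and 2-fold as dashed lines. Ptcra lies at 3.32 to 4.61 in the comparisons of the DN2-3 with the DN1 gate, and the CD3 genes lie left of 0 when Tcf7-/- or Vav-cre DN1 is set against WT DN1.

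The CD3 genes differed more among the DN1 libraries. Cd3d had 798 CPM in Tcf7-/-, 478 CPM in Vav-cre and 1803 CPM in WT DN1. Cd3g had 857 CPM in Tcf7-/-, 474 CPM in Vav-cre and 1689 CPM in WT DN1. For both genes WT was the highest DN1 library, within the DN2-3 range for Cd3d and just below it for Cd3g, and Vav-cre was the lowest of all 8. Cd3e had 159 CPM in Tcf7-/-, 140 CPM in Vav-cre and 279 CPM in WT DN1, and 1 cell held 53.7% of the Vav-cre counts. Cd247 had 175 CPM in Tcf7-/-, 89.8 CPM in Vav-cre and 134 CPM in WT DN1, and in Vav-cre cells 5 cells held 97.1% of it.

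Set against WT DN1, Tcf7-/- DN1 had 1 member at least 2-fold higher, Ptcra with a log2 ratio of 2.45, and 1 lower, Cd3d with -1.17, where 10.4% of all genes were higher and 5.34% lower. Cd3g had -0.97 (-1.06 with TMM factors), Cd3e -0.77 and Cd247 0.37. Without NK-marked cells, which leaves 7 cells in WT DN1, Cd3e had -2.38 and Cd3g -1.43. The library labelled Vav-cre DN1 had 2 members lower than WT DN1, Cd3d with -1.89 and Cd3g with -1.81, and none higher, where 18% of all genes were higher and 9.64% lower. Ptcra was under 10 CPM in both of those libraries and was not compared. Cd3e had -0.95 there, and -1.81 without the highest cell. The median over the members was -0.77 for Tcf7-/- over WT DN1, against 0.07 over all measured genes. For Vav-cre over WT DN1 it was -1.38 over the 4 measured members, against 0.13 over all measured genes, and -0.95 with Ptcra counted in.

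The DN1 libraries of the mutants were also set against each other. The library labelled Vav-cre DN1 had 1 member lower than Tcf7-/- DN1, Ptcra with -2.28, and none higher, where 13.8% of all genes were higher and 11.6% lower. Cd3d had -0.73, Cd3g -0.84, Cd247 -0.89 and Cd3e -0.18 in that comparison. Among cells with at least 2000 detected genes, Cd3d had -0.30, Cd247 -0.30 and Cd3e 0.11. Without the highest cell of each gene Cd3d had -1.02, Cd3e -1.06, Cd3g -1.05 and Cd247 -1.25, all past 2-fold. With cells weighted equally Cd3g had -1.26 and Cd247 -1.61, and in thinned cells Cd3e had -1.33 and Cd247 -1.40. The median count per kept cell was 19293 in Vav-cre DN1 and 37088.5 in Tcf7-/- DN1.

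The change from the DN1 to the DN2-3 gate was largest for Ptcra in every genotype measured at both. Its log2 ratio was 3.32 in Tcf7-/-, 4.61 in Vav-cre and 3.82 in WT cells, and the fold of the CPM was 11.7 in Tcf7-/- cells (10.2 to 13.5), 115 in Vav-cre cells (44.7 to 422) and 131 in WT cells (66 to 304). In Tcf7-/- cells Cd3d (1.10) and Cd3g (1.26) were also higher in the DN2-3 gate, making 3 members, where 8.14% of all genes were higher and 17.1% lower. In cells labelled Vav-cre Cd3d (2.07), Cd3g (1.88) and Cd247 (1.76) were higher too, making 4 members, where 15.9% of all genes were higher and 24.7% lower. Cd3e had 0.90 there, and 1.69 without its highest cell. In WT cells Cd247 was the other member past 2-fold (1.02, and 0.84 with TMM factors), where 16.3% of all genes were higher and 11.7% lower. In WT cells Cd3d had a ratio below 0 (-0.53), unlike in the mutants, but 0.11 without NK-marked cells, which leaves 7 cells in WT DN1. The difference from the mutants was not tested. Cd3g in WT cells had 0.26 and Cd3e 0.15 (-0.04 with TMM and -0.06 with DESeq2 factors). No member was at least 2-fold lower in the DN2-3 gate of any genotype. The median over the members was 1.10 in Tcf7-/-, 1.88 in Vav-cre and 0.26 in WT cells, against -0.12, -0.18 and 0.15 over all genes.

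In single cells the gates overlapped for Ptcra. Cells without a count were found in every library, 34 of them in WT DN2-3, and most Tcf7-/- DN1 cells held a count. A count of Ptcra was found in 97.8% of 93 Tcf7-/- DN2-3 cells, 78.9% of 76 Vav-cre, 82.4% of 91 and 71.3% of 87 Lck-cre, and 61.4% of 88 WT cells. In the DN1 gate it was found in 72.9% of 96 Tcf7-/- cells, against 3.45% of 58 Vav-cre and 3.49% of 86 WT cells, whose median depths were 37088.5, 19293 and 66572 counts. The median cell held 27 counts in Tcf7-/-, 8 in Vav-cre, 12 and 4 in Lck-cre and 1 in WT DN2-3 plates. In cells thinned to 10000 counts Tcf7-/- stayed highest and WT lowest, with Ptcra in 87.6% of Tcf7-/-, 69.2% of Vav-cre, 67.1% and 63.5% of Lck-cre and 42.5% of WT DN2-3 cells. Of the thinned DN1 cells, 41.1% of the Tcf7-/- and none of the 49 Vav-cre and 81 WT cells held a count, so the Tcf7-/- DN1 share was close to that of WT DN2-3. The zero shares have Clopper-Pearson upper bounds of 7.25% for Vav-cre and 4.45% for WT.

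The Tcf7-/- DN1 cells had Ptcra in many cells but little in each. No such cell had more than 9 counts, 59 of the 70 cells with a count had 5 or fewer, and 11.5% of all 96 had more, against 84.9% in Tcf7-/- DN2-3, 60.5% in Vav-cre, 60.4% and 47.1% in Lck-cre and 34.1% in WT DN2-3 cells. With counts of 1 to 5 set to 0, the log2 ratio of Tcf7-/- over WT DN1 was 1.5. All 8 plates used the same 96 barcodes, and across the 96 wells the Ptcra count of Tcf7-/- DN1 followed that of the same barcode on the Tcf7-/- DN2-3 plate with a Spearman rho of 0.49, against 0.09 to 0.32 for the same barcodes on the other DN2-3 plates. For the CD3 genes the rho with the Tcf7-/- DN2-3 plate was -0.03 for Cd3d, 0.00 for Cd3e and 0.00 for Cd3g, and it was 0.22 for Cd247. Il2ra, which encodes the CD25 that the DN1 gate excludes, had a count in 72.9% of Tcf7-/- DN1, 36.2% of Vav-cre DN1 and 9.30% of WT DN1 cells. The summed level of Il2ra had another order, with 60.6 CPM in Tcf7-/-, 169 CPM in Vav-cre and 9.70 CPM in WT DN1. The part of shared barcodes in the Ptcra level of Tcf7-/- DN1 was not tested.

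**Figure D3:**
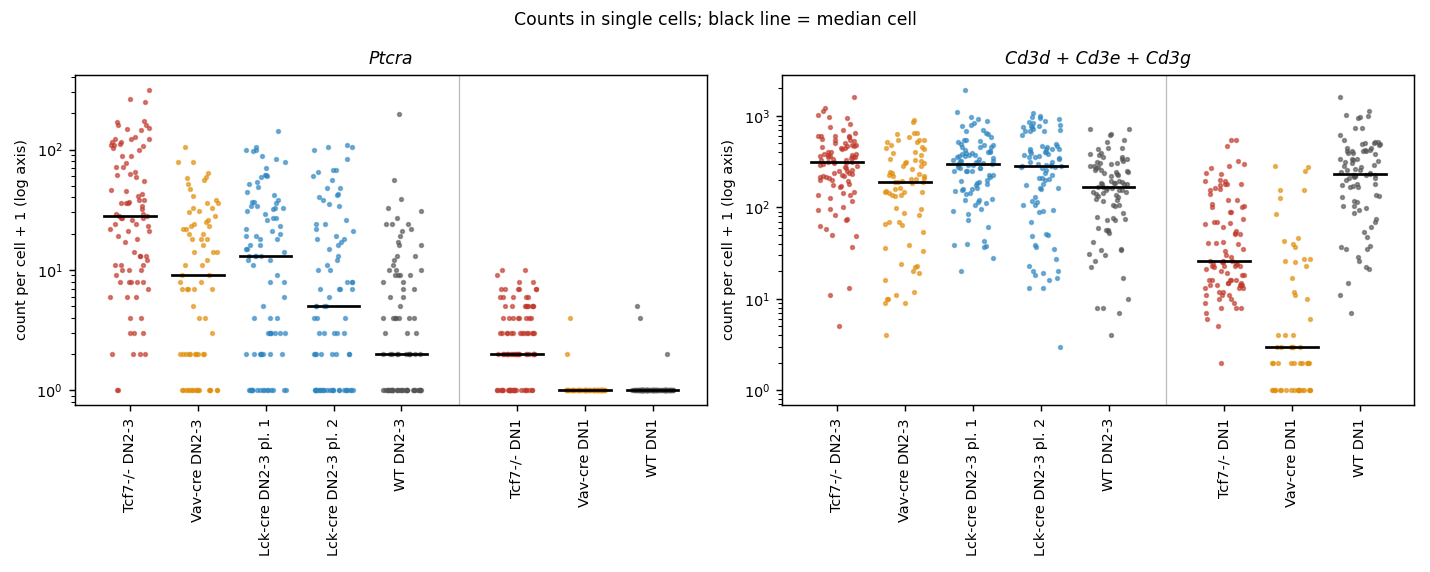
Counts per kept cell plus 1 on a log axis, for Ptcra on the left and for the sum of Cd3d, Cd3e and Cd3g on the right, with 1 dot per cell and the median cell as a black line. Ptcra reaches 314 counts in Tcf7-/- DN2-3 cells but never more than 9 in Tcf7-/- DN1 cells, and the CD3 sum is lowest in cells labelled Vav-cre DN1.

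The CD3 genes were found in nearly every DN2-3 cell, whatever the genotype. Cd3d had a count in 95.5% to 100% and Cd3g in 98.7% to 100% of the cells of each DN2-3 library, Cd3e in 95.4% to 96.7% and Cd247 in 74.7% to 94.6%. The median cell held 130 counts of Cd3d in Tcf7-/-, 89 in Vav-cre, 81 and 72 in Lck-cre and 46 in WT DN2-3 libraries. In the DN1 gate the median was 8 in Tcf7-/-, 1 in Vav-cre and 111 in WT cells. The plates differed in depth. Scaled to the total of each cell, the DN1 medians were 802 CPM in Tcf7-/-, 23.4 CPM in Vav-cre and 1754 CPM in WT cells. The DN2-3 medians were then 1689 CPM in Tcf7-/-, 1925 CPM in Vav-cre, 1559 and 1794 CPM in Lck-cre and 1300 CPM in WT cells. The typical WT DN1 cell thus held more Cd3d than the typical WT DN2-3 cell, at median depths of 66572 and 43592.5 counts per cell. Cd247 was patchier: it was found in 77.1% of Tcf7-/-, 13.8% of Vav-cre and 55.8% of WT DN1 cells.

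Taking the members together, all 3 CD3 genes without Ptcra marked the WT DN1 cells. That combination was found in 16 of 96 Tcf7-/-, 16 of 58 Vav-cre and 80 of 86 WT DN1 cells. In the DN2-3 gate it was found in 2 of 93 Tcf7-/-, 15 of 76 Vav-cre, 15 of 91 and 22 of 87 Lck-cre and 30 of 88 WT cells. All 5 members were found in 84 of 93 Tcf7-/-, 51 of 76 Vav-cre, 65 of 91 and 48 of 87 Lck-cre and 44 of 88 WT DN2-3 cells, and in 44 of 96 Tcf7-/-, 0 of 58 Vav-cre and 2 of 86 WT DN1 cells. The Clopper-Pearson upper bound of 0 of 58 is 6.16%. After thinning, all 5 were found in 10 of 73 Tcf7-/- DN1 and 20 of 80 WT DN2-3 cells. With counts of 1 to 5 set to 0, the numbers were 3 of 96 and 15 of 88. Ptcra without any CD3 gene was found in 1 cell of all 675, in the library labelled Vav-cre DN1. In that library 18 of 58 cells had no CD3 gene at all, against 0 in each of the 7 others, and after thinning 18 of 49 of its cells had none, against 1 of 65 Vav-cre DN2-3 cells, 2 of 81 WT DN1 cells and 0 in the other libraries. In thinned DN1 cells WT stayed highest, with all 3 CD3 genes without Ptcra in 16 of 73 Tcf7-/-, 8 of 49 Vav-cre and 61 of 81 WT cells, while the order of Tcf7-/- and Vav-cre turned.

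**Figure D4:**
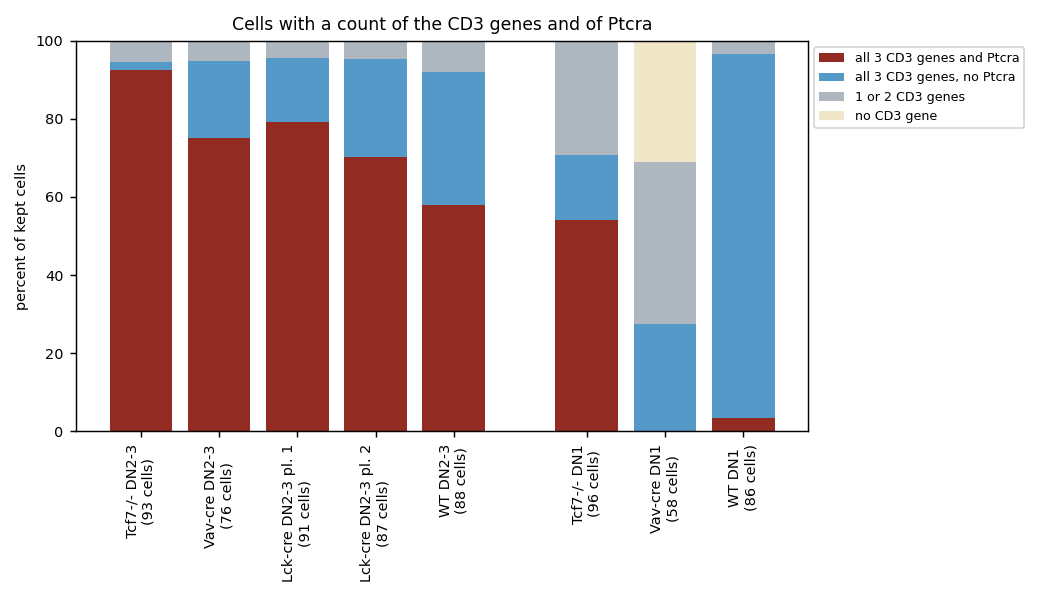
Percent of kept cells of each library with counts of all 3 CD3 genes and Ptcra, all 3 CD3 genes without Ptcra, 1 or 2 CD3 genes, and no CD3 gene. Cells with all 3 CD3 genes and no Ptcra make up 93% of WT DN1 and 34.1% of WT DN2-3 cells, and cells with no CD3 gene are seen in the library labelled Vav-cre DN1.

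Within a plate the members were loosely related from cell to cell. Over the kept cells of each of the 5 DN2-3 plates, the Spearman rho of CPM between the neighbouring genes Cd3d and Cd3g was 0.29 to 0.48, and 0.30 to 0.53 after thinning. It was 0.14 to 0.47 between Ptcra and Cd3g, 0.07 to 0.43 between Ptcra and Cd3d, -0.17 to 0.29 between Ptcra and Cd3e and -0.03 to 0.16 between Cd3g and Cd247. In Tcf7-/- DN1 cells it was 0.72 between Cd3d and Cd3g (n = 96), in Vav-cre DN1 cells 0.69 (n = 58) and in WT DN1 cells 0.39 (n = 86). These are descriptions, since the cells of a plate share its preparation and counts are sparse.

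The CD3 genes in the DN1 gate were also looked at beside the NK markers. A cell was called NK-marked when at least 3 of the 13 markers had at least 3 counts each, which held for 69 of 96 Tcf7-/-, 13 of 58 Vav-cre and 79 of 86 WT DN1 cells. In WT DN1, Cd3d had 1857 CPM in NK-marked and 1288 CPM in the 7 other cells, and Cd3g had 1740 CPM in NK-marked and 1204 CPM in other cells. In Tcf7-/- DN1, Cd3d had 883 CPM in NK-marked and 450 CPM in other cells, Cd3g had 958 CPM in NK-marked and 441 CPM in other cells, and Cd3e had 190 CPM in NK-marked and 35.5 CPM in other cells. In Vav-cre DN1, Cd3d had 915 CPM in NK-marked and 350 CPM in other cells, and Cd3g had 864 CPM in NK-marked and 360 CPM in other cells. Cd3e had 468 CPM in NK-marked and 43.5 CPM in other Vav-cre DN1 cells, where 1 cell held 70.7% of the NK-marked counts, and 285 CPM in NK-marked and 227 CPM in other WT DN1 cells. Each CD3 gene was higher in the NK-marked cells of all 3 libraries, but 1 of the 7 other WT DN1 cells held 62.1% of their Cd3e counts. In the DN2-3 gate Cd3d had 74.8 CPM in the 5 NK-marked WT cells and 1392 CPM in other WT cells. It had 1352 and 2129 CPM in Vav-cre DN2-3 and 1923 and 1707 CPM in Tcf7-/- DN2-3 cells in the same order. Ptcra in Tcf7-/- DN1 had 45.8 CPM (38.8 to 53.6) in NK-marked and 72.2 CPM (55 to 93.1) in other cells, whose median depths were 41350 and 11813 counts. Without the NK-marked cells of every library, Cd3d was 0.11 for WT DN2-3 over WT DN1, with 7 cells left in WT DN1, and Cd3e was 2.42 for Tcf7-/- DN2-3 over DN1 and 2.43 for Vav-cre DN2-3 over DN1. The part of these cells in the other DN1 results was not tested beyond these values.

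**Figure D5:**
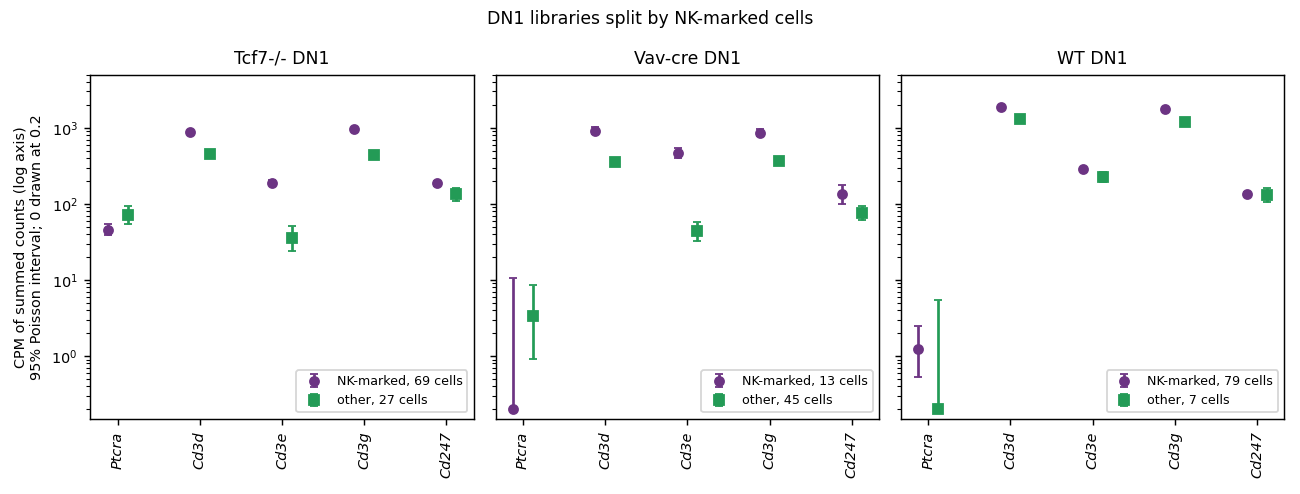
Level of each member in NK-marked and other cells of the 3 DN1 libraries, in CPM on a log axis with 95% Poisson intervals; a level of 0 is drawn at 0.2 CPM. Cd3d, Cd3e and Cd3g are higher in NK-marked cells in each library, and Ptcra is at 0 in the 13 NK-marked Vav-cre cells and in the 7 other WT cells.

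Adaptors that do the work of CD3 zeta in other receptors ran opposite to Ptcra between the gates. Fcer1g, the gamma chain of Fc receptors, had 3.58 CPM in Tcf7-/- DN2-3 against 1242 CPM in Tcf7-/- DN1, and 6.39 CPM in Vav-cre DN2-3 against 1559 CPM in Vav-cre DN1. In WT cells it had 10.4 CPM in DN2-3 against 830 CPM in DN1. Tyrobp (DAP12) and Hcst (DAP10), which serve NK and myeloid receptors, were lower in the DN2-3 gate as well, so 3 of 3 genes of this list were at least 2-fold lower in each genotype, where 17.1% of all genes were lower in Tcf7-/-, 24.7% in Vav-cre and 11.7% in WT cells. Their log2 ratios in WT cells were -5.36 for Fcer1g, -4.49 for Tyrobp and -2.58 for Hcst. Between genotypes within the DN2-3 gate none of those measured passed 2-fold. In the DN1 gate 1 of 3, Tyrobp, passed 2-fold over WT, at 1.13 in Tcf7-/- and 1.63 in Vav-cre cells. Of all genes 10.4% and 18% were higher there. Fcer1g had 0.58 and 0.90 in these comparisons and Hcst -0.81 and -0.69. Vav-cre over Tcf7-/- DN1 gave 0.50 for Tyrobp, 0.32 for Fcer1g and 0.12 for Hcst. Of 4 receptor partners of Cd247 outside the T-cell receptor, Cd2, an adhesion receptor, had 205 CPM in Tcf7-/-, 189 CPM in Vav-cre and 5.28 CPM in Lck-cre DN2-3 cells and was listed at 0 in WT DN2-3 cells. In the DN1 gate Cd2 ran the other way, with 184 CPM in Tcf7-/-, 142 CPM in Vav-cre and 448 CPM in WT cells. The rest of this list was at 0 in every DN2-3 library.

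Of the 30 genes of pre-TCR and TCR signalling, 29 were measured in the DN2-3 comparisons. In Tcf7-/- over WT, 3 were at least 2-fold higher and 4 lower (3.19% and 10.5% of all genes), with a median of -0.36 against -0.17 over all genes. Zap70, the kinase that docks on phosphorylated CD3 and zeta tails, had a log2 ratio of 1.69, the kinase Fyn 1.02 and the receptor Cd6 1.01, while the adaptor Grap2 had -1.35, the Ras activator Rasgrp1 -1.33 and the ubiquitin ligase Cbl -1.26. In cells labelled Vav-cre 3 were higher and 2 lower (5.77% and 10.5% of all genes, median -0.12 against -0.14), with Zap70 at 1.77, Fyn at 1.66 and the adaptor Sla at 1.01 against the co-receptor Cd28 at -1.53 and the kinase Lck at -1.19. In cells labelled Lck-cre none was higher and 1, Grap2 with -1.17, was lower (0.935% and 3.48% of all genes, median -0.19 against -0.08). Cells labelled Lck-cre against Vav-cre had 1 higher, Cd28 with 1.34, and 4 lower (5.81% and 6.35% of all genes), among them Fyn with -2.11, Grap2 with -1.40 and Sla with -1.20.

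Between the gates the signalling genes went both ways. In WT cells 4 of 30 were at least 2-fold higher and 11 lower in the DN2-3 gate (16.3% and 11.7% of all genes), with Themis, a thymocyte signalling regulator, at 4.16 and the adaptor Lat at 1.23, and Cd5 and Zap70 both at -3.15. In Tcf7-/- cells 3 were higher and 6 lower (8.14% and 17.1% of all genes), with Themis at 2.35 and Cd28 at 1.73 against Malt1, a protease of NF-kB signalling, at -1.89. In cells labelled Vav-cre 6 were higher and 5 lower (15.9% and 24.7% of all genes), with Lat at 1.90 and Themis at 125 CPM in Vav-cre DN2-3 and 0 in Vav-cre DN1, against Rasgrp1 at -2.19. In the DN1 gate Tcf7-/- had 1 higher and 5 lower than WT (10.4% and 5.34% of all genes), with Cd28 at -3.45 and Cd5 at -2.54. Vav-cre had 2 of 29 higher and 9 lower than WT (18% and 9.64% of all genes), with Cd28 at -4.09 and Cd5 at -3.45. Vav-cre over Tcf7-/- DN1 had 2 higher and 5 lower of 29 (13.8% and 11.6% of all genes), with Rasgrp1 at 1.68 and Lck at -1.57.

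Factors linked to Ptcra or CD3 gene transcription made a list of 25. In Tcf7-/- over WT DN2-3, 5 were higher and 3 lower (3.19% and 10.5% of all genes), with Ikzf3 at 1.92, Ets2 at 1.70 and Lef1, the TCF1 relative, at 1.38, against Tcf7 itself at -2.72 and Myb at -1.19. Of 24 measured in cells labelled Vav-cre, 4 were higher and 3 lower (5.77% and 10.5% of all genes), with Id2, an inhibitor of E-proteins, at 2.19 and Ikzf3 at 1.60, against Bcl11b, a T-lineage factor, at -1.63 and Ikzf1 at -1.28. Of 22 in cells labelled Lck-cre none was higher and 1, Id2 with -1.46, was lower (0.935% and 3.48% of all genes). Lck-cre over Vav-cre had 1 higher and 3 lower of 24 (5.81% and 6.35% of all genes), with Bcl11b at 1.25 and Id2 at -3.65. From DN1 to DN2-3, 7 of 25 were higher and 4 lower in Tcf7-/- (8.14% and 17.1% of all genes), 9 of 24 higher and 7 lower in Vav-cre (15.9% and 24.7%), and 10 of 23 higher and 3 lower in WT cells (16.3% and 11.7%). Id2 was lower in the DN2-3 gate in all 3 (-3.72 in Tcf7-/-, -2.87 in Vav-cre and -5.15 in WT), and the receptor Notch3 was at 2.32 in Vav-cre cells and had 65.9 CPM in WT DN2-3 and 0 in WT DN1. In the DN1 gate 4 of 22 were higher and 4 lower in Tcf7-/- than WT (10.4% and 5.34% of all genes), 5 of 22 higher and 4 lower in Vav-cre than WT (18% and 9.64%), and 4 of 21 higher and 1 lower in Vav-cre than Tcf7-/- (13.8% and 11.6%).

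Within the DN2-3 gate, stage genes did not move as a block with Ptcra between genotypes. Of the 18 DN2 and DN3 stage genes, 4 of 16 measured were higher and 4 lower in Tcf7-/- than in WT DN2-3 cells (3.19% and 10.5% of all genes), with the Notch target Dtx1 at 2.95 and Cd8b1, the CD8 beta chain, at 1.85, against the mast-cell and progenitor protease gene Cpa3 at -3.85 and Dntt, the enzyme that adds bases at receptor joints, at -1.49. In cells labelled Vav-cre 4 of 15 were higher and 4 lower (5.77% and 10.5% of all genes), with Dtx1 at 2.97 and Cpa3 at -3.03. In cells labelled Lck-cre none of 15 was higher and 3 lower (0.935% and 3.48% of all genes), with Cd8b1 at -1.37. Between the gates 10 of 18 were higher and 7 lower in Tcf7-/- (8.14% and 17.1% of all genes), 8 of 17 higher and 5 lower in Vav-cre (15.9% and 24.7%), and 9 of 16 higher and 4 lower in WT cells (16.3% and 11.7%), with Dntt at 2.26, 5.08 and 7.02 in the same order. In the DN1 gate 10 of 15 were higher and 0 lower in Tcf7-/- than WT (10.4% and 5.34% of all genes), with Cpa3 at 5.22 and Dntt at 3.27. In Vav-cre 8 of 14 were higher and 0 lower than WT (18% and 9.64% of all genes), and 3 of 16 higher and 7 lower than Tcf7-/- (13.8% and 11.6%).

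The genes whose level over the 8 libraries was most like that of Ptcra, by Pearson's r of log2 CPM plus 10 among 5392 genes, were Rnaseh2b (0.996), Hnrnpa1 (0.990), Aurkb (0.990), Atp5f1 (0.989) and Aldh1b1 (0.983). Of the members Cd247 was the nearest to Ptcra (0.930), and Cd3e the farthest (0.532), whereas over the 6 libraries without the Tcf7-/- plates Cd3d was the farthest (0.564) and Cd3e had 0.649. For Cd3d they were Kdelr1 (0.963), Pbdc1, Rpl14-ps1, Minpp1 and Exosc4 (0.947). Cd3e was nearest to Gpatch4 (0.970), Taf5l, Cd3g (0.940), Nifk and Anxa2. Cd3g was nearest to Rpl26 (0.968), Ppp5c, Tomm5, Mrps16 and Las1l, and Cd247 to Cenpw (0.981), Gtf2b, Ndufaf1, Hnrnpc and Cdc26. With 3 DN1 and 5 DN2-3 libraries, the values for Ptcra, Cd3g and Cd247 may rest on the gap between the gates. For Cd3d and Cd3e, WT DN1 lay within the DN2-3 range, and Tcf7-/- and Vav-cre DN1 were the lowest libraries. What these values rest on was not tested.

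Across cells within the DN2-3 plates the nearest genes were others. By the mean Spearman rho over the 5 plates, among 3916 genes, Ptcra was nearest to Hdac4 (0.34), Lck (0.33), Pld4 (0.32), Ldhb (0.30) and Cd3d (0.30), and Cd3d to Btg2 (0.36), Cd3g (0.36), Lck (0.33), Malat1 (0.32) and Hdac4 (0.32). Cd3g was nearest to B2m (0.38), Cd3d (0.36), Lck (0.34), Ppt1 (0.32) and Ptcra (0.29), and Cd3e to Malat1 (0.29), Ogt, Lck (0.26), Il2ra and Thy1. For Cd247 they included Oaz2 (0.25), Nedd4, Gmfg and Gabarap (0.20), and no other member was among the 5 nearest. Lck, the kinase that starts signalling from this complex, was thus among the 5 nearest genes of Ptcra, Cd3d, Cd3e and Cd3g, and the rho values are low throughout.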

How the data were processed

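Per the labels' protocols, cDNA was made by a modified STRT method (the same text also names Smart-seq2) and sequenced as paired-end reads; TopHat2 2.1.1, HTSeq and the builds mm10 and GRCm38 are named in the submitters' processing notes. Whether molecular identifiers were collapsed is not given in the sources used here. The authors deposited whole-number counts per gene and cell and, in a second table, log2 values of TPM divided by 10 plus 1, without a gene length term. Left out were 27 count entries whose names had become dates (0.141% of counts). Counts of cells with 1000 or more detected genes were summed per plate and scaled to CPM. Log2 ratios used a pseudocount of 10 CPM. Genes entered a comparison if either side had a library at 10 CPM or above, and 2-fold is a log2 ratio of 1 either way. For Lck-cre the mean over both plates was used. Intervals are exact Poisson, Clopper-Pearson and conditional binomial. Thinned cells hold 10000 counts, which left out between 4 and 23 shallower cells a plate. Doublets were not sought. The calculation of the ratios was tested on simulated data. Genes beyond the members were named by rank in their list or by likeness. Some genes that this rule would name are not reported here. The members and lists were chosen with earlier results of these data known. Alternatives included TMM (edgeR 4.0.16) and DESeq2 1.42.0 size factors. Python 3.11.15 and R 4.3.3 were used.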

Additional observations from a re-analysis of the deposited data

Results flagged for a closer look

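Cd3d stood out in 4 pairs of comparisons because its ratios within a pair had opposite signs, each beyond the gap between the Lck-cre plates. Its log2 ratio of Tcf7-/- over WT was 0.46 in the DN2-3 gate and -1.17 in the DN1 gate. That of Vav-cre over WT was 0.71 in the DN2-3 gate and -1.89 in the DN1 gate. The log2 ratio of the DN2-3 over the DN1 gate was 1.10 in Tcf7-/- and 2.07 in Vav-cre cells but -0.53 in WT cells. Without NK-marked cells the WT value was 0.11, with 7 cells left in WT DN1, so the opposite direction between the gates was lost there. These are not independent findings, since each pair shares the WT DN1 library. None of the differences was tested, as each group was 1 library.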

How the results depend on the processing

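Of the 15 log2 ratios of single members past 2-fold, none changed sign under the alternatives tried. The call was lost for Cd3d in Tcf7-/- over WT DN1 (-0.93) and for Cd3d and Cd3g in Tcf7-/- DN2-3 over DN1 (0.93 each) with cells weighted equally, and for the same 3 with the authors' log2 values (-0.95, 0.96 and 0.96). Cd247 in WT DN2-3 over DN1 lost it with TMM (0.84) and DESeq2 (0.82) factors. Other ratios passed 2-fold under an alternative alone, between 0 and 8 per setting, among them Cd3g in Lck-cre over Vav-cre DN2-3 (1.06) and Cd3e in Vav-cre over WT DN1 (-1.06 to -2.15). Ptcra in Vav-cre over WT DN2-3 ran between 0.69 and 1.26, and in Lck-cre over WT between 0.75 and 1.28.

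The median over the members moved as follows. With TMM factors it was 0.42 for Tcf7-/- and 0.38 for Vav-cre over WT DN2-3, and 0.065 for WT DN2-3 over DN1, and with DESeq2 factors 0.39, 0.41 and 0.045. These factors moved the median of all genes by -0.16 to 0.19 (TMM) and -0.17 to 0.17 (DESeq2). For Lck-cre over Vav-cre DN2-3 it was 0.30 with cells weighted equally, 0.32 thinned and 0.31 with the authors' log2 values, and -0.22 to 0.13 without an Lck-cre plate. Lck-cre over WT gave 0.41 to 0.48 without a plate. For Tcf7-/- over WT DN1 it was -0.59 with cells weighted equally, -0.59 with the authors' values, -0.93 with counts of 1 to 5 set to 0 and -1.43 without NK-marked cells. For Vav-cre over WT DN1 it was -1.28 with equal weights, -1.25 with the authors' values, -1.71 thinned, -0.62 for cells with at least 2000 genes, -1.71 without NK-marked cells and -1.81 without the highest cell. For Vav-cre over Tcf7-/- DN1 the same first 4 settings gave -1.26, -1.25, -1.33 and -0.30, and leaving out NK-marked cells gave -0.35. For WT DN2-3 over DN1 it was 0.51 with equal weights, 0.49 with the authors' values, 0.46 thinned and 0.81 without NK-marked cells. Without NK-marked cells it was 0.027 for Tcf7-/- over WT DN2-3, 2.14 for Tcf7-/- DN2-3 over DN1 and 2.43 for Vav-cre DN2-3 over DN1. Tcf7-/- DN2-3 over DN1 gave 0.93 with equal weights, and Vav-cre DN2-3 over DN1 gave 2.24 without the highest cell. The cause of these moves was not tested.

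Of 40 shares of cells with a count, 22 moved beyond their interval after thinning and 34 with counts of 1 to 5 set to 0. Without a filter on low values 6 of 10 shares of all genes at least 2-fold higher, and 6 of 10 lower, moved by over 1.5 times. Likeness without the Tcf7-/- plates, chosen after seeing the data, moved by more than 0.1 for 4 of 44 values, those of Cd3e with Ptcra (0.649) and with Cd247 (0.742), counted from each side. No paired analysis was possible because the groups compared share only replicate number 1, which no label ties to an animal or day, and no test was made. Ptcra rests on 4 counts in Vav-cre and 8 in WT DN1, which limits its precision there.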
